A study of Mus musculus domesticus and Mus musculus domesticus x Mus musculus castaneus and Mus musculus castaneus with 10 samples.

Results

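The primed pluripotency genes described here are Fgf5, Otx2, Pou3f1, Lef1, Sox3, Zic2, Nodal, Lefty1 and Lefty2. They were chosen by symbol, as a fixed list of 9 genes, by a rule that uses no measured value, although earlier results of these data were known when the list was made. Of the 9 symbols, 7 were matched to an identifier among the 26808 genes of the count table. Lefty1 and Lefty2, the secreted inhibitors of Nodal, were not analysed here. Values come from 2 RNA-seq libraries of undifferentiated CAST homozygous pluripotent stem cells (CAST/EiJ, Mus musculus castaneus), a line of induced pluripotent stem cells. These cells had been made from embryonic fibroblasts by retroviral delivery of Oct4, Sox2 and Klf4. Cultures were kept on irradiated fibroblast feeder cells in medium with serum, serum replacement and LIF, without any other treatment, and feeders were depleted before RNA was extracted. Libraries of a 129S6/SvEv embryonic stem cell line (4) and of 129CAS hybrid stem cells (4) also belong to the study and were not analysed here. All results are therefore levels in 1 genotype and the spread between its 2 replicates. No comparison between genotypes was made and no p-value is given.

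Pluripotent cells of the mouse are described along a path from a naive state, like that of the epiblast before implantation, to a primed state, like that of the epiblast after implantation. LIF and the transcription factors of the naive network hold cells in the first state, and FGF and Nodal signals support the second. Cells that leave the naive state take up Otx2, Pou3f1 and Fgf5, while Zic2, Sox3 and Lef1 are transcription factors that also act as the epiblast moves on to lineage choice. Nodal is a ligand of the TGF-beta family that keeps the primed epiblast pluripotent and later patterns it.

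The libraries held 14460393 counts in replicate 1 and 13728098 in replicate 2. Each level is a count divided by the library's total and multiplied by 1000000 (CPM), and levels of different genes were ranked only per kilobase of exon. At this depth 3 counts equal 0.207 CPM in replicate 1 and 0.219 CPM in replicate 2, and a gene at or below that was treated as not detectable. Intervals are exact 95% Poisson intervals, which cover counting error only. The label of pluripotent stem cells was checked against 8 general pluripotency genes, and all 8 were measured, from 16.3 CPM per kilobase of exon for Lin28a to 678 for Utf1 in replicate 1. Pou5f1 (Oct4) and Sox2 among the 8 are also reprogramming factors. Their counts can include transcripts of the retroviral vectors, which was not tested. The batch entry in the labels differs between the replicates, so a replicate difference and a batch difference cannot be told apart. The study's methods describe RNA from stem cell cultures in replicate, without saying whether the replicates were grown independently. In RNA from whole cultures, fewer cells that use a gene and less RNA of it per cell cannot be told apart.

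Several of these genes belong to families with a paralog that stem cells use strongly, so the sequences that set them apart are shown first. For each pair below, the 150-base coding stretch with the most identical bases was found in the GENCODE M21 transcripts of GRCm38, and capitals mark the bases at which the pair differs. Sox3 (chrX:60892843-60892992, minus strand, exon 1) and Sox2 (chr3:34650551-34650700, plus strand, exon 1) were 90.0% identical, in the part that codes for the HMG box, and the longest identical run between the coding sequences was 32 bases.
Sox3: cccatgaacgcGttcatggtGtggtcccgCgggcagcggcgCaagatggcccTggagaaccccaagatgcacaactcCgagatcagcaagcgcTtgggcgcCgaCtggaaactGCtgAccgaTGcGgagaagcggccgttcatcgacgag
Sox2: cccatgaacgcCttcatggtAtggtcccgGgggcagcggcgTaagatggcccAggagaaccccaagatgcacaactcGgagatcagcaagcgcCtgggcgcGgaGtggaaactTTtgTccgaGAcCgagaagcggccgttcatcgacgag
Pou3f1 (chr4:124658506-124658655, plus strand, exon 1) and Pou5f1 (chr17:35509176-35509223 in exon 2, continuing in exon 3, plus strand) were 79.3% identical, in the part that codes for the POU domain, and the longest identical run was 18 bases.
Pou3f1: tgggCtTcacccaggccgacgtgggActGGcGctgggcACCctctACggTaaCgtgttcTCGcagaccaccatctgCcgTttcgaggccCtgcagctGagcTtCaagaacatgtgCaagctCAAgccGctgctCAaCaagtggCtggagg
Pou5f1: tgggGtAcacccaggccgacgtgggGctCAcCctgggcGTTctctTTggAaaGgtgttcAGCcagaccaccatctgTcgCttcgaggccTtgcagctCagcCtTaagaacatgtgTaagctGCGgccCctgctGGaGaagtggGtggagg
The 15 and 31 differing bases of these 2 pairs lie throughout the stretch, and no window of 75 bases of the Sox3 or Zic2 transcript searched occurred in a transcript of another gene. The same held for Fgf5, Otx2 and Nodal. For each gene 1 transcript was searched, that with the longest coding sequence, so exon bases outside it were not checked. That transcript has 2440 of the 2880 exon bases of Zic2 and 1708 of the 4221 of Otx2. In the Pou3f1 transcript, 6.81% of such windows were shared with Gm2164, and in the Lef1 transcript 33.4% were shared with Gm43352. Over all exon bases of the gene, the overlap was 8.57% for Pou3f1 and 13.7% for Lef1. Both of these genes lie on the opposite strand and overlap the exons, so the windows are one place in the genome and not a second copy. The strand setting of the counting is not given in the sources used here, and the Pou3f1 and Lef1 levels are uncertain because of this overlap. Otx2 overlaps Otx2os1 on the opposite strand over 3.65% of its exon bases, and Otx2os1 had 5 and 18 counts in replicates 1 and 2. It also overlaps Gm49154 on the same strand over 3.98% of its exon bases, where no strand setting separates the reads, so the Otx2 level is uncertain as well.

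The 7 measured genes spanned a wide range, from Zic2, with few genes above it, to Fgf5, with most genes above it. Per kilobase of exon, the order was Zic2, Nodal, Otx2, Sox3, Lef1, Pou3f1 and Fgf5. Zic2 had 78.8 CPM per kilobase in replicate 1 and 65.6 in replicate 2, and 4.74% of the 13824 genes that reached 10 counts over both libraries had a higher mean. Nodal had 50.9 and 22.4 CPM per kilobase, with 10.9% of genes above its mean. Otx2 followed with 10.6 and 12.1 CPM per kilobase and 32.4% of genes above. Sox3 had 8.07 and 8.11 CPM per kilobase and 39.7% of genes above. Fgf5 came last with 1.08 and 0.408 CPM per kilobase and 79.6% of genes above. Between neighbours in this order, the values of the 2 libraries overlapped only for Lef1 (3.62 and 7.66 CPM per kilobase) and Pou3f1 (4.44 and 5.56). The other neighbours did not overlap, which with 2 libraries each is a description and not a test. The place of Lef1 depends on the gene model, because its exons add up to 8788 bases over all isoforms and its longest transcript has 3656. On the length of the longest transcript, Lef1 had 8.70 and 18.4 CPM per kilobase and stood above Sox3. The level of Otx2 depends on the gene model too, with 4221 exon bases against 2592 in its longest transcript. On the latter length Otx2 had 17.3 and 19.8 CPM per kilobase and kept place 3, but its values overlapped those of Lef1.

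**Figure D1:**
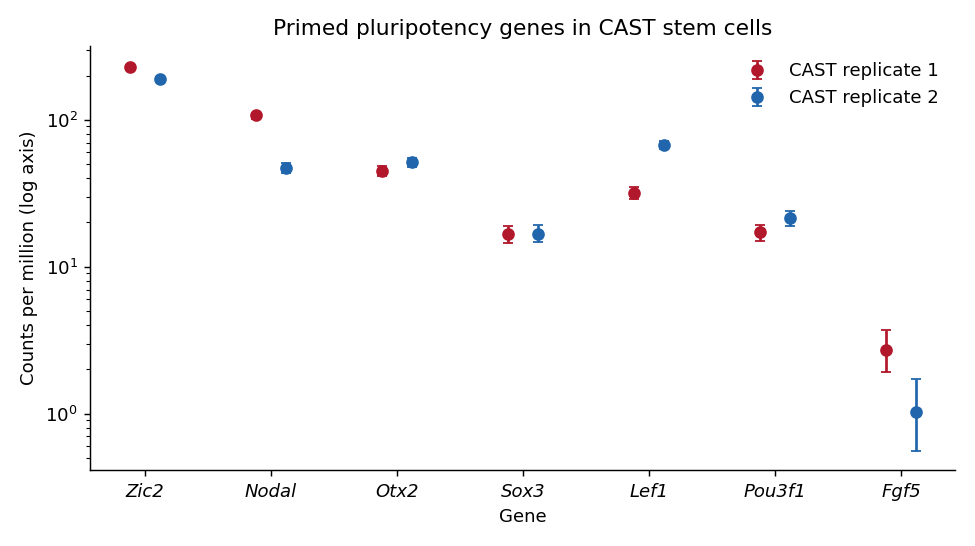
CPM (vertical, log axis) of the 7 measured primed pluripotency genes (horizontal, by mean CPM per kilobase) in CAST replicate 1 (red) and replicate 2 (blue), with exact 95% Poisson intervals. The 2 libraries are apart in opposite directions for Nodal (107 and 47.0 CPM) and Lef1 (31.8 and 67.3 CPM) and overlap for Sox3 (16.7 and 16.8 CPM). Levels of different genes on this axis are not corrected for length.

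Among the transcription factors, Zic2, Otx2, Pou3f1 and Sox3 were similar in the 2 libraries, each less than 2-fold apart. Zic2 (chr14:122475435-122479852 of GRCm38), a zinc finger factor of the epiblast and later of the neural tube, had 3280 counts in replicate 1 and 2592 in replicate 2. These counts equal 227 CPM (interval 219 to 235) and 189 CPM (182 to 196), a mean of 208 ± 26.9 (SD, n = 2). Replicate 1 was 1.15-fold higher after TMM scaling, a small difference that exceeds counting error alone. Otx2 (chr14:48657677-48673819), a homeobox factor that drives the exit from the naive state, had 648 and 704 counts. Its level was 44.8 CPM (41.4 to 48.4) and 51.3 CPM (47.6 to 55.2), a mean of 48.0 ± 4.57 (SD, n = 2). Replicate 2 was the higher library for Otx2, by 1.19-fold. The log2 ratio of replicate 1 to replicate 2 was -0.25 (-0.41 to -0.10), beyond counting error alone. Pou3f1 (chr4:124656807-124660655), the POU factor also called Oct6, had 247 and 294 counts, equal to 17.1 CPM (15.0 to 19.3) and 21.4 CPM (19.0 to 24.0). Its log2 ratio was -0.38 (-0.64 to -0.14), also beyond counting error alone. Sox3 (chrX:60891366-60893430), an HMG box factor of the SOXB1 group with Sox1 and Sox2, had 241 and 230 counts, equal to 16.7 CPM (14.6 to 18.9) and 16.8 CPM (14.7 to 19.1). The libraries overlapped within counting error for Sox3, and its log2 ratio of replicate 1 to replicate 2 was -0.06 (-0.33 to 0.20).

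The 4 factors held different places in their own families. Among the ZIC genes analysed, Zic2 was above Zic5, which had 23.6 and 17.0 CPM per kilobase. Zic1 had 2 and 11 counts. Zic4 had none in either library, below the limit of detection of 0.207 and 0.219 CPM. Within the SOXB1 group the primed gene was not the highest, since Sox2, the general pluripotency factor, had 254 and 184 CPM per kilobase against 8.07 and 8.11 for Sox3. The Sox2 counts can include transcripts of the reprogramming vector, which was not tested. Sox1, which marks early neural cells, had 0.444 and 0.618 CPM per kilobase. Otx2 was above Otx1, at 0.293 and 0.376 CPM per kilobase, and above the photoreceptor gene Crx, with 0 and 5 counts. Pou3f1 was above its closest relatives, the neural POU factors Pou3f2 with 1 and 4 counts, Pou3f3 with 40 and 13 counts and Pou3f4 with none. Pou5f1, also a reprogramming factor, had 243 and 325 CPM per kilobase, far above Pou3f1 in both libraries.

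**Figure D2:**
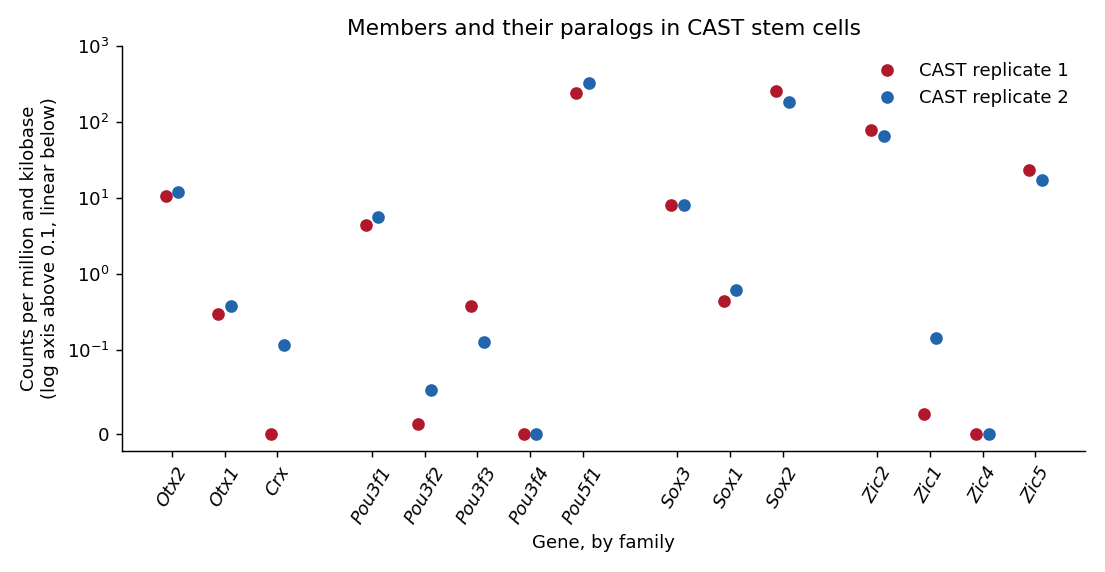
Level in CPM per kilobase of exon (vertical, log axis above 0.1 and linear below) of Otx2, Pou3f1, Sox3 and Zic2 and the paralogs listed for each (horizontal), in CAST replicate 1 (red) and replicate 2 (blue). Zic2 at 78.8 and 65.6 is the highest of the ZIC genes shown, while Sox3 lies below Sox2 and Pou3f1 below Pou5f1.

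Nodal, Lef1 and Fgf5 were each at least 2-fold apart between the replicates, 3 of the 7 measured genes, against a background of 9.11% of the 13824 genes that reached 10 counts. For the 9926 genes whose mean was 5 CPM or more, as it was for all measured members but Fgf5, the background was 5.46%, made up of 3.18% higher in replicate 1 and 2.28% higher in replicate 2. The 3 genes did not go the same way, since Nodal and Fgf5 were higher in replicate 1 and Lef1 was higher in replicate 2. Of the 13824 genes, 4.98% were at least 2-fold higher in replicate 1 and 4.13% in replicate 2. These shares are also the background for the counts given for other gene lists below. With TMM scaling and a pseudocount of 0.5 CPM, the log2 ratio (replicate 1 over replicate 2) had a median of -0.06 over the 7 genes and 0.00 over all 13824. With 1 library on each side there is no replicate check on these differences.

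**Figure D3:**
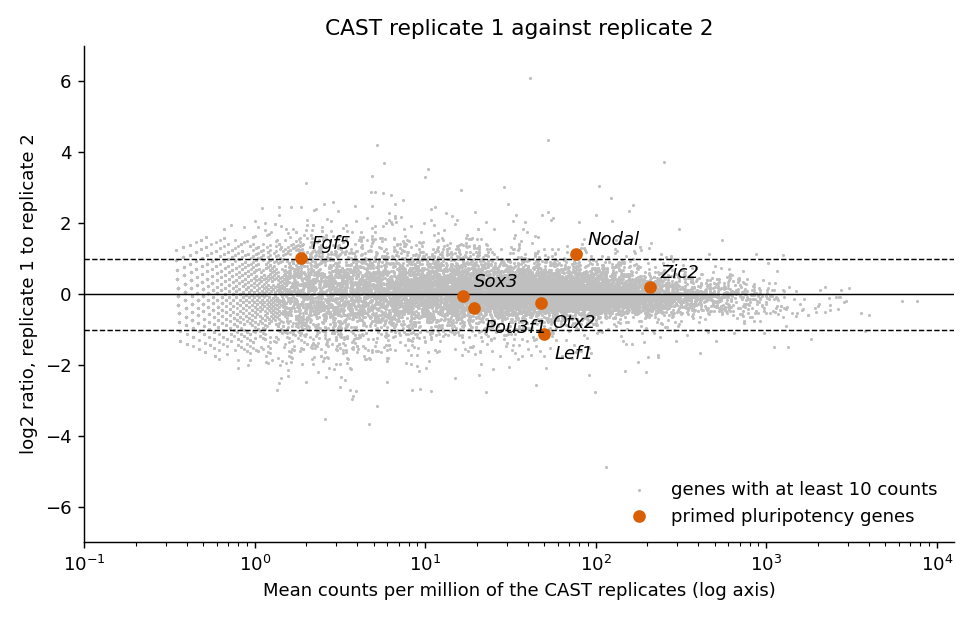
Log2 ratio of CAST replicate 1 to replicate 2 (vertical) against mean CPM (horizontal, log axis) for the 13824 genes with at least 10 counts (grey) and the 7 primed pluripotency genes (orange), with dashed lines at 2-fold. Nodal (1.12) and Fgf5 (1.03) lie above the upper line, Lef1 (-1.13) lies below the lower one, and the other 4 lie between.

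Nodal (chr10:61417972-61425338) had 1542 counts in replicate 1 and 645 in replicate 2. These equal 107 CPM (101 to 112) and 47.0 CPM (43.4 to 50.8), a mean of 76.8 ± 42.2 (SD, n = 2). Replicate 1 was 2.18-fold higher, with a log2 ratio of 1.12 and an interval from counting error of 0.99 to 1.26. Of 19 other genes listed for the Nodal pathway, 17 were matched and 14 had at least 10 counts. Only Smad7 among these 14 was at least 2-fold apart, none was so in the direction of replicate 2, and the median log2 ratio was 0.20. Smad7, an inhibitor that TGF-beta family signals raise as feedback, had 188 CPM in replicate 1 and 77.3 CPM in replicate 2, higher in the same library as Nodal. Skil, of the same list, was nearly level at 88.4 and 81.2 CPM. The ligand Gdf3 had 132 and 97.8 CPM, and the coreceptor Tdgf1, also called Cripto, had 184 and 119 CPM. Type I and type II receptors were measured in both libraries, with Acvr1b at 55.2 and 42.0 CPM and Acvr2b at 37.3 and 30.7 CPM, while Acvr1c had no count. The signal transducers Smad2 (99.2 and 99.4 CPM) and Smad4 (128 and 120 CPM) were nearly level, and Smad3 had 74.5 and 43.7 CPM. Foxh1, the DNA-binding partner of SMAD proteins at Nodal targets, had 53.1 and 74.2 CPM, higher in replicate 2. The proteases that mature Nodal, Furin and Pcsk6, were within 2-fold. Of the secreted inhibitors other than the LEFTY proteins, Cer1 had 2 counts in each library, below the limit of detection, and Dand5 had 0.761 and 1.09 CPM. The ligand, its coreceptor, receptors and transducers were thus measured in both libraries.

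Lef1 (chr3:131110471-131224356), an HMG box factor that binds beta-catenin at Wnt targets, had 460 counts in replicate 1 and 924 in replicate 2. Its level was 31.8 CPM (29.0 to 34.9) and 67.3 CPM (63.0 to 71.8), a mean of 49.6 ± 25.1 (SD, n = 2). Replicate 2 was 2.20-fold higher, with a log2 ratio of replicate 1 to replicate 2 of -1.13 (-1.30 to -0.98). The other LEF/TCF genes did not show a difference of this size. Tcf7l1, the repressor of this family in stem cells, had 46.2 and 44.1 CPM per kilobase, Tcf7 had 38.6 and 45.5, and Tcf7l2 had 1.10 and 1.38. Ctnnb1, which encodes beta-catenin, had 1008 and 999 CPM. Among the 11 of 12 Wnt genes with at least 10 counts, 3 were at least 2-fold higher in replicate 1, 1 was at least 2-fold higher in replicate 2, and the median log2 ratio was -0.18. The Wnt targets were split, and Nkd1, a feedback inhibitor, was nearly level at 6.36 and 6.99 CPM. Axin2, which also encodes a feedback inhibitor, had 22.5 and 8.81 CPM, and the transcription factor Sp5 had 14.5 and 6.48 CPM, both higher in replicate 1 and thus opposite to Lef1. Lgr5, a Wnt target that encodes a receptor for R-spondins and is counted among the 3, had 15 and 2 counts, so its level in replicate 2 was not detectable and its difference rests on few counts. Cdx1, a homeobox target of Wnt in the posterior embryo, had 2.21 and 16.3 CPM, a log2 ratio of -2.68 in the direction of Lef1. T, the primitive streak factor that Wnt also raises, was in the same direction with 7.81 and 15.8 CPM, a log2 ratio of -1.03. The ligand gene Wnt3 had 21 and 40 counts, and Wnt3a 6 and 12.

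Fgf5 (chr5:98254184-98277030), the FGF ligand used most often to mark the primed epiblast, had 39 counts in replicate 1 and 14 in replicate 2. The level was 2.70 CPM (1.92 to 3.69) and 1.02 CPM (0.558 to 1.71), a mean of 1.86 ± 1.19 (SD, n = 2). Both libraries lay above the limit of 3 counts. Replicate 1 was 2.54-fold higher without a pseudocount, with an interval from counting error of 0.43 to 2.34 on the log2 scale, and the log2 ratio with the pseudocount was 1.03. With a pseudocount of 2 CPM, Fgf5 was no longer 2-fold apart. Fgf4, the FGF ligand of naive cells, had 76.9 and 63.8 CPM per kilobase, against 1.08 and 0.408 for Fgf5. Of 12 genes of the FGF pathway with at least 10 counts, 2 were at least 2-fold higher in replicate 1, 2 in replicate 2 and 8 in neither, with a median log2 ratio of 0.19. The feedback phosphatase gene Dusp6 had 6.98 and 2.55 CPM and the inhibitor gene Spry4 had 25 and 6 counts, both higher in replicate 1 as Fgf5 was. Fgfr3 had 17.3 and 56.5 CPM and the ligand gene Fgf8 had 25 and 56 counts, both higher in replicate 2. The receptor gene Fgfr1 had 235 and 179 CPM, and the ETS factor Etv5, which FGF signals raise, had 947 and 740 CPM.

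The 7 genes were set against other genes that mark the naive and the later states. Of 13 measured naive genes, all 13 exceeded Fgf5 and Pou3f1 per kilobase in both libraries. Nanog, also on the naive list, was not analysed here. Otx2, Sox3 and Lef1 were below all 13 in replicate 1 and below 12 in replicate 2. Nodal was exceeded by 9 naive genes in replicate 1 and 10 in replicate 2, and Zic2 by 5 and 4. The naive transcription factors Klf2 (348 and 153 CPM per kilobase) and Zfp42 (304 and 262) were the highest of that list, together with Dppa3 (208 and 153). Summed over the list, the 13 naive genes had 1555 and 1003 CPM per kilobase, and the 7 primed genes had 157 and 122. These sums cover different numbers of genes. The medians per kilobase were 76.9 and 50.8 for the naive genes and 8.07 and 8.11 for the primed genes. Members of the naive list were higher in replicate 1 in 12 of 13 cases, and the median log2 ratio was 0.56. Of these, 4 were at least 2-fold higher (Tbx3, Klf2, Klf4 and Klf5, with log2 ratios of 1.83, 1.12, 1.12 and 1.04). Over all 13824 genes, 4.98% were at least 2-fold higher in replicate 1. Klf4 is also a reprogramming factor of the vectors. The 8 general pluripotency genes were all within 2-fold, with a median of -0.08.

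Of 12 other genes of the formative or primed state, 11 were matched. The most abundant by their mean per kilobase were Etv5 (231 and 180), Zic5 (23.6 and 17.0) and Foxd3 (26.8 and 9.37). At least 2-fold higher in replicate 1 were Foxd3 (62.4 and 21.8 CPM), a forkhead factor of the epiblast, Grhl2 (9.54 and 3.64 CPM), an epithelial factor, and Fst (7.40 and 2.84 CPM), which encodes the activin inhibitor follistatin. Fgf8 was the 1 gene of this list at least 2-fold higher in replicate 2. The shares over all 13824 genes were 4.98% for replicate 1 and 4.13% for replicate 2. The median log2 ratio of the list was 0.30. Dnmt3a, a DNA methyltransferase, had 136 and 143 CPM, and the tight junction gene Cldn6 had 21.1 and 21.3 CPM. Primitive streak and mesendoderm genes were low in both libraries, with summed levels of 27.0 and 40.9 CPM over 8 genes and Foxa2 at 1 count in each library. The most abundant per kilobase was T (3.38 and 6.83), followed by Eomes (3.05 and 4.33) and Gsc (1.96 and 2.36). Their median log2 ratio over the 6 with at least 10 counts was -0.41, and T was the 1 gene at least 2-fold apart.

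Fibroblast markers differed between the libraries as well. All 8 were measured, none was at 0, and their summed level was 2896 CPM in replicate 1 and 1193 CPM in replicate 2. Col1a1 had 1726 and 777 CPM, Col1a2 825 and 273, Col3a1 265 and 101, and Thy1 29.7 and 11.3 CPM, all at least 2-fold higher in replicate 1. The share of all 13824 genes past 2-fold in this direction was 4.98%. Dcn (3.25 and 3.21 CPM) and Pdgfrb (6.15 and 6.63 CPM) were nearly level. The median log2 ratio of the list was 1.00, beside 1.12 for Nodal, 1.03 for Fgf5 and -1.13 for Lef1. Whether feeder cells had a part in the differences of Nodal, Fgf5 or Lef1 was not tested.

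**Figure D4:**
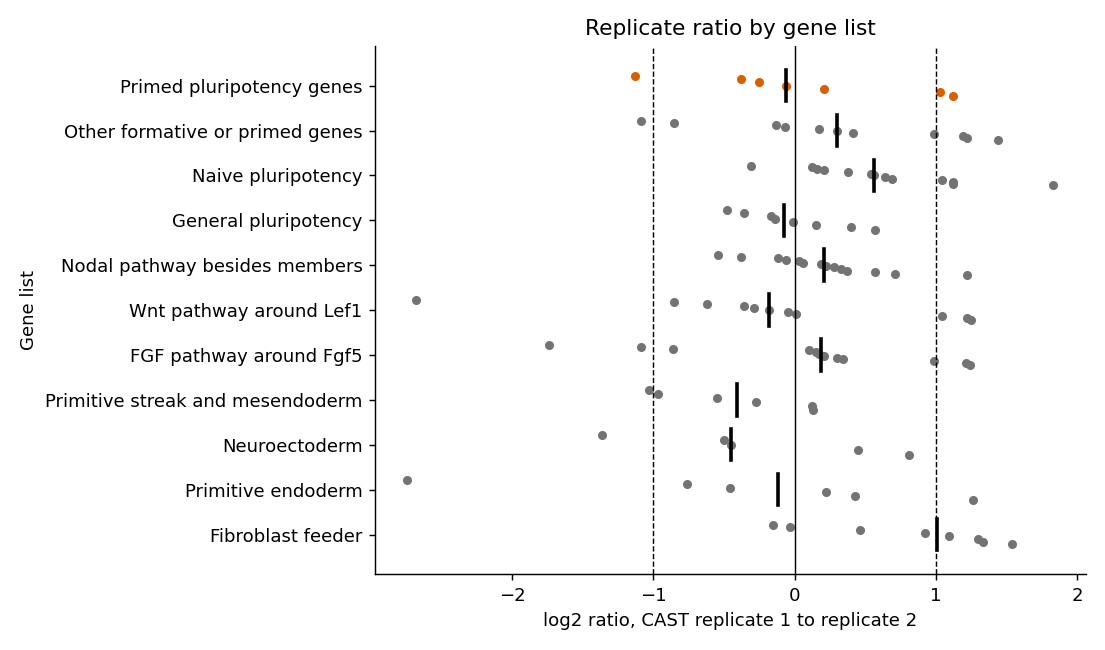
Log2 ratio of CAST replicate 1 to replicate 2 (horizontal) for each gene with at least 10 counts in the primed pluripotency genes (orange) and 10 other gene lists (grey), with black bars at the medians and dashed lines at 2-fold. The primed pluripotency genes lie on both sides of 0 with a median of -0.06, while the naive list (0.56) and the fibroblast list (1.00) lie mostly to the right, higher in replicate 1.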

How the data were processed

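RNA-seq counts of 2 CAST stem cell libraries were used. The authors deposited counts, whole numbers of reads per GRCm38 Ensembl gene without normalization. Sources differ on how they were made. The submitters' processing notes for these libraries name TopHat2 2.1.1, SAMtools and HTSeq, and the methods name STAR with the genome of each strain, with reads at more than 1 locus discarded. Loss of CAST reads on a reference of another strain was not tested, nor was the strand setting known. A further 7 per-sample columns of the table match no sample of the list and were not used.

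Symbols came from GENCODE (26807 of 26808 identifiers), and positions, exon union lengths and transcripts from GENCODE M21, which is on GRCm38. CPM used library totals of 14460393 and 13728098. Ratios used TMM effective sizes (edgeR 4.0.16, R 4.3.3), 0.5 CPM as pseudocount and a minimum of 10 counts over both libraries (13824 genes), and folds of single genes carry no pseudocount. A ratio's interval is the exact conditional binomial one. Alternatives tried were DESeq2 1.42.0 size factors, unadjusted totals, pseudocounts of 0.1 and 2 CPM, at least 1 count in total, edgeR's expression filter, longest transcript length and each library left out. The ratio was tested on simulated data. Python 3.11.15 was used for the remainder.

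The members and lists were chosen with earlier results of these data known. Named genes were the members, the 3 most abundant genes per kilobase of each list and up to 4 of its genes at least 2-fold apart. Other genes were named after their values were seen. One gene of the lists is not reported here and was left out of their counts and medians.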

Additional observations from a re-analysis of the deposited data

How the results depend on the processing

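No paired analysis was possible because the analysed libraries form 1 group. Under TMM sizes and DESeq2 size factors the mean CPM of each of the 7 genes moved by less than its SD. Leaving out the library named moved the mean by over 1.5 times for Nodal (47.0 CPM without replicate 1), Lef1 (31.8 CPM without replicate 2) and Fgf5 (1.02 CPM without replicate 1), and leaving out the other library moved it by less. In the order per kilobase, Lef1 moved to place 4 and Sox3 to place 5 on the length of the longest transcript. With 1 library left out, Lef1 and Pou3f1 ranged from place 5 to place 6. The log2 ratios stayed within their counting intervals under all 4 alternatives. The number of the 7 genes at least 2-fold apart was 3 with library totals, DESeq2 size factors and a pseudocount of 0.1 CPM, and 2 with a pseudocount of 2 CPM. Over all genes it was 1259. It was 540 when the pseudocount was 2 CPM. It was 542 when only genes averaging 5 CPM or more were counted, a minimum chosen after seeing the data that removes low genes. It lay between 849 and 1811 under the other 5 alternatives.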

Other observations

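Markers of the primitive endoderm, the extraembryonic lineage beside the epiblast, differed in opposite directions. Gata6, a transcription factor that specifies it, had 10 and 99 counts in replicates 1 and 2, for a log2 ratio of -2.74. Gata4 had 59 and 96 counts. Dab2, an endocytic adaptor, had 85.8 and 34.1 CPM, a log2 ratio of 1.26 the other way, and the laminin gene Lama1 had 102 and 72.4 CPM. All 6 markers were measured, with a median log2 ratio of -0.12.

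Of the 8 neuroectoderm markers, 5 had at least 10 counts, and 3 were at or under 3 counts in both libraries (Hes5, Olig2 and Neurog2). Tubb3 had 81.2 and 44.2 CPM and Nes 65.9 and 46.3 CPM, while Pax6 had 13 and 41 counts, a log2 ratio of -1.36. The median log2 ratio of these 5 genes was -0.45. Among the 11 paralogs analysed, Pou3f3 was at least 2-fold apart, with 40 and 13 counts and a log2 ratio of 1.13. Zic1 also passed that threshold, but its 2 counts in replicate 1 were not detectable at this depth, so no ratio is given. The median log2 ratio over the 7 with at least 10 counts, Zic1 included, was -0.33.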
